A study of Mus musculus with 18 samples.

Results

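H3K27me3 was examined at 10 genes of planar cell polarity and neural tube closure, Vangl1, Vangl2, Celsr1, Scrib, Ptk7, Fzd3, Fzd6, Shroom3, Cobl and Folr1, out of 21883 protein-coding genes placed on the mouse chromosomes. They were chosen by name, for their part in closing the neural tube. No value measured here entered the rule, but earlier results of these data were known when the genes were chosen. This histone mark was mapped by CUT&Tag, in which an antibody guides a transposase to the mark and the cut DNA is sequenced. The tissue was the headfold, the front of the embryo that forms the brain, taken at embryonic day 8.5 with 1 headfold per reaction. Every embryo was Gulo-/- and so could not make its own vitamin C. The 4 groups were 129 with vitamin C (3.3 g/l in the drinking water), 129 without it, B6 with it and B6 without it, and each held 3 libraries, of which 2 came from females and 1 from a male. A single pregnancy code was shared by the 3 analysed B6 embryos given vitamin C. In B6, vitamin C therefore cannot be told apart from that pregnancy. A gene was called marked in a library when a peak of that library's list overlapped the gene, extended by 1 kb at each end, by at least 1 bp.

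Planar cell polarity is the system by which neighbouring cells of a sheet align with one another. Vangl and Celsr proteins and Fzd receptors sit asymmetrically at cell borders, and their activity narrows and lengthens the neural plate before its folds rise. Shroom3 then constricts the cell apices that bend the plate, and mouse embryos that lack these genes often fail to close the tube. H3K27me3 is laid down by Polycomb repressive complex 2, mostly over CpG-rich promoters of genes that are silent in at least part of the cells. In a whole headfold, a mark on few cells and a weak mark on many cells cannot be told apart.

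The promoter of Cobl, the gene among the 10 that was marked most often, is shown beside that of Vangl2, which was marked in 0 libraries. Both sequences run 5′ to 3′ on the minus strand, come from RefSeq (GRCm38.p6, the assembly mm10 stands for) and stop where the annotated gene begins. Capitals mark each CG, the dinucleotide that can be methylated. The Cobl stretch is chr11:12465023-12465210 and holds 21 CG in 188 bases. The Vangl2 stretch is chr1:172027319-172027545 and holds 17 CG in 227 bases.
Cobl: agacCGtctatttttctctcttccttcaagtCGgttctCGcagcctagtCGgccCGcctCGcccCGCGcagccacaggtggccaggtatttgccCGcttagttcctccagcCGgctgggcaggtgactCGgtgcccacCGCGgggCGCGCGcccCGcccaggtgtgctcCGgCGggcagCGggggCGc
Vangl2: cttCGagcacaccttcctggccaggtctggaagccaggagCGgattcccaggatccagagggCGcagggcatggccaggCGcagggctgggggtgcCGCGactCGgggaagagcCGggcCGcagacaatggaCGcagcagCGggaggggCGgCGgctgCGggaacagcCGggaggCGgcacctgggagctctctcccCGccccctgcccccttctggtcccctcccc
Promoter entries were found for 4 of the 10 genes (Vangl2, Ptk7, Shroom3 and Cobl, 6 windows in all). Each window spans 250 bases before to 50 bases after a transcription start, 300 in all.

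Of the 10 genes, 7 carried no peak in any of the 12 libraries, and 3 carried one in at least 1 library. Across all protein-coding genes, 20.2% were marked in at least 1 library and 21.4% of those within the length range of the 10 genes (12.5 to 282.3 kb) were. Only Cobl was marked in 6 or more libraries, against 11% of all protein-coding genes, and 0 of the 10 in 10 or more, against 5.93%. In all, 9 of 120 combinations of gene and library were marked (7.5%), beside 10.4% over all protein-coding genes. The median number of marked libraries was 0 both for the 10 genes and for all. All 9 peaks came within 1 kb of a gene end, and 0 lay inside a gene away from both ends. Over all protein-coding genes, 7.01% had such an inside peak in at least 1 library, so 0 of 10 genes was near that share.

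**Figure D1:**
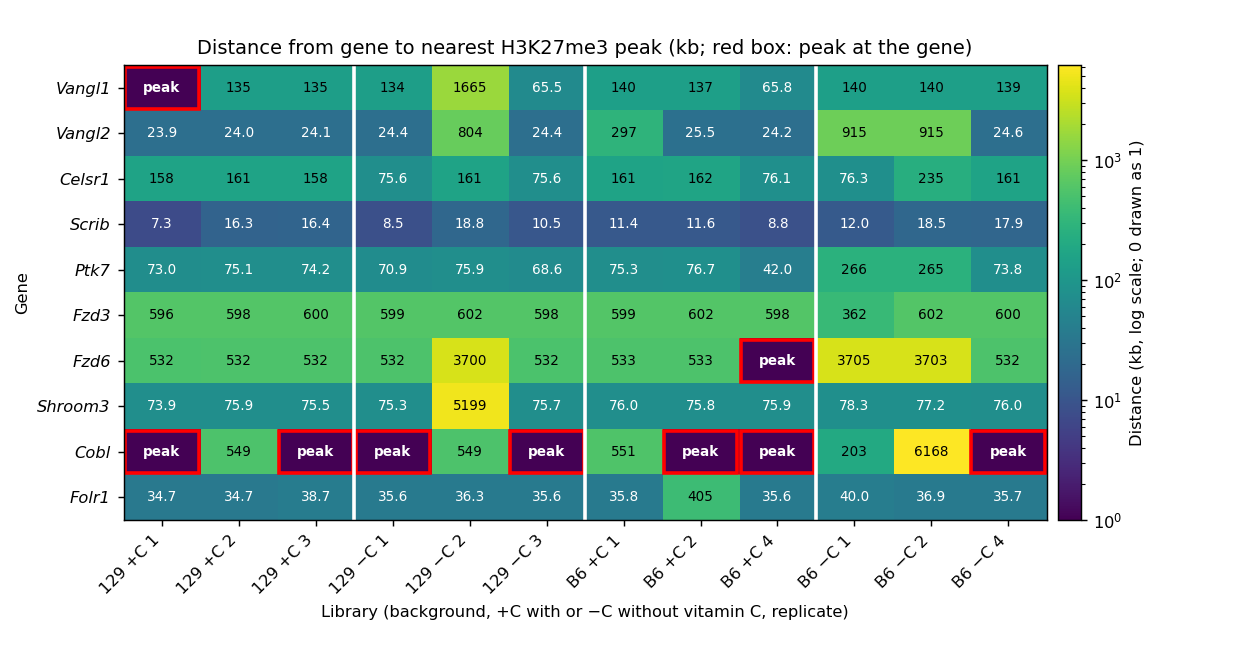
Distance in kb from each gene (rows) to the nearest H3K27me3 peak in each library (columns, +C with and −C without vitamin C); the colour scale is logarithmic, and red boxes mark the 9 combinations with a peak at the gene. Cobl has 7 boxes, Vangl1 and Fzd6 have 1 each, and Scrib lies closest to peaks in every library without carrying one.

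The lists themselves differed in size. They held 748 to 4726 peaks and covered 3.58 to 31.7 Mb, with median peak widths of 1.32 to 8.45 kb. Sequencing depth is unknown, so the absence of a peak says that none was called there, not that the mark was absent. Libraries with IgG (4) and 2 further H3K27me3 libraries of B6 were not analysed here. Housekeeping genes, which are active in every cell, were marked in at least 1 library for 1 of 8 (Actb, in 1 library), and 0 of 8 reached 6 libraries. Among neural plate markers, Hesx1 and Cdh2 were marked in 0 libraries, Sox2 in 2 and Otx2 in 3, while Sox3 (6), Nes (7), Pou3f1 (8), Sox1 (10) and Six3 (11) made up the 5 of 9 that reached 6 libraries. Neural crest markers reached 6 libraries for 4 of 4, mesoderm markers for 3 of 5, endoderm markers for 3 of 4, heart markers for 1 of 4, vessel and blood markers for 1 of 5 and surface ectoderm markers for 0 of 5. Over all protein-coding genes, 20.2% were marked in at least 1 library and 11% in 6 or more. Peaks of a repressive mark do not show which cells the tissue held.

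Cobl encodes cordon-bleu, a protein that starts new actin filaments, and lies at chromosome 11, 12236676 to 12465022 (mm10), on the minus strand. It was marked in 4 of 6 libraries with vitamin C and in 3 of 6 without, and in 4 of 6 of 129 and 3 of 6 of B6. In 129 with vitamin C, the peaks were 5.45 kb wide in replicate 1 and 3.94 kb in replicate 3, and replicate 2 had none. In 129 without vitamin C they were 5.36 kb in replicate 1 and 5.84 kb in replicate 3, and replicate 2 again had none. The B6 libraries with vitamin C held a peak of 0.817 kb in replicate 2 and one of 4.59 kb in replicate 4, but none in replicate 1. Of the B6 libraries without vitamin C only replicate 4 held one, of 3.22 kb. Each group had at least 1 library with and 1 without the peak, so the groups overlapped in every direction.

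All 7 Cobl peaks lay at the same place, the start of the gene. Of these, 6 covered the annotated start site (chromosome 11, position 12464960), reaching 1.97 to 3.13 kb upstream and 1.25 to 3.1 kb into the gene. The short peak of B6 with vitamin C replicate 2 lay inside the gene, from 0.32 to 1.14 kb downstream of that start site. Those 817 bases (chromosome 11, 12463824 to 12464640) were common to all 7 peaks. The 7 peaks together spanned 6.23 kb across the start of a gene 228.3 kb long, partly inside and partly upstream of it, and they overlapped no other annotated gene. The position of maximum signal lay inside the gene in all 7, between 334.5 and 1009.5 bases from its high-coordinate end (12465022).

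**Figure D2:**
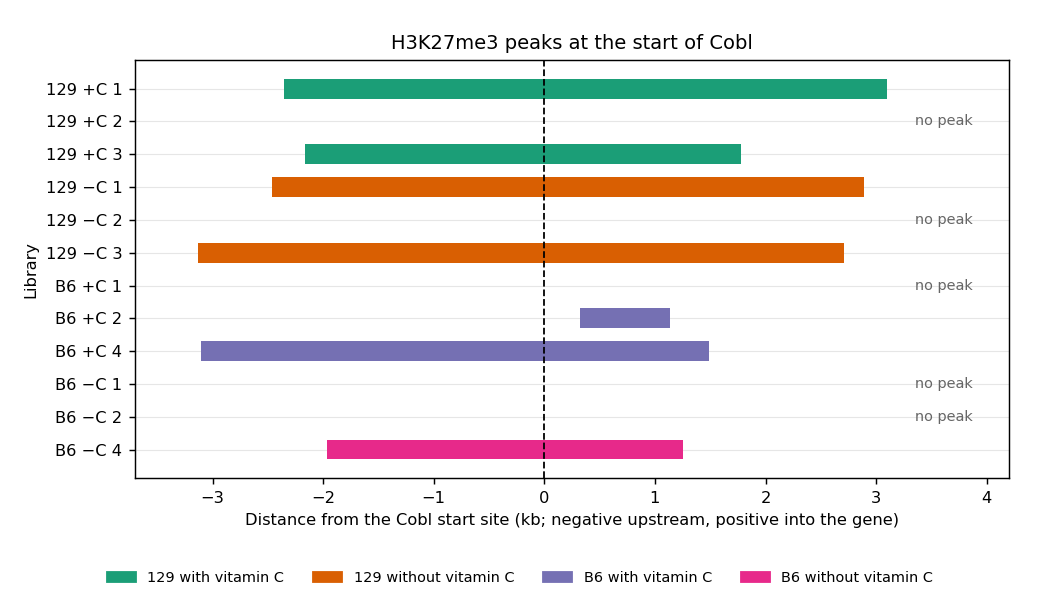
Extent of the H3K27me3 peak at Cobl in each library, in kb from the annotated start site (dashed line; negative values are upstream). In 6 libraries the bar crosses the start site, in B6 with vitamin C replicate 2 it lies wholly inside the gene, and 5 libraries have none.

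The printed Cobl promoter belongs to the window that these peaks covered. That 300-base window held 42 CG, more than or as many as 97.4% of all 32851 promoter windows, with 75.3% G and C, and a peak overlapped it in 6 libraries. The other annotated Cobl promoter (chromosome 11, 12412091 to 12412390) held 0 CG and was overlapped in 0 libraries. CG was present in 94.6% of all windows, with a median of 7 per window. Of the other genes, 1 Shroom3 window held 37 CG, the Ptk7 window 22, the Vangl2 window 21 and the other Shroom3 window 12. Each was overlapped in 0 libraries. Over all windows, 12.1% were overlapped in at least 1 library and 6.62% in at least 6. Of the 995 windows with 42 or more CG, 22.9% and 14.2% were, so most CG-rich windows had no peak either. These are descriptions of the annotated windows and carry no test.

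Within the lists that held it, the Cobl peak ranked low by total signal. Ranked upwards from the weakest peak, it stood at the 3.34th percentile in B6 without vitamin C replicate 4 and at the 5.29th in B6 with vitamin C replicate 2. It reached the 38.2nd at most, in B6 with vitamin C replicate 4. In 129 with vitamin C it stood at the percentiles 11.9 (replicate 1) and 7.78 (replicate 3). The corresponding values of 129 without vitamin C were 19.6 (replicate 1) and 28 (replicate 3). Its total signal was 1.04 to 2.27 times the lowest value in the same list, so several of these peaks lay close to the weakest ones called. By maximum signal the percentiles ran from 7.72 to 55, with a median of 41.5 against 11.9 by total signal. Every one of the 7 was narrower than the median peak of its list.

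The Cobl call moved with the size of the list. The 7 lists with the peak held 2395 to 4726 peaks and covered a median of 25.9 Mb, and the 5 lists without it held 748 to 2397 peaks and covered a median of 6.97 Mb. The ranges of peak number overlapped only between 2395 and 2397. Covered length overlapped more, at 8.69 to 31.7 Mb with and 3.58 to 17.8 Mb without the peak. The part of list size in the Cobl call was not tested. With every list held to its 748 strongest peaks, 0 of the 10 genes was marked in any library, beside 7.28% of all protein-coding genes.

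**Figure D3:**
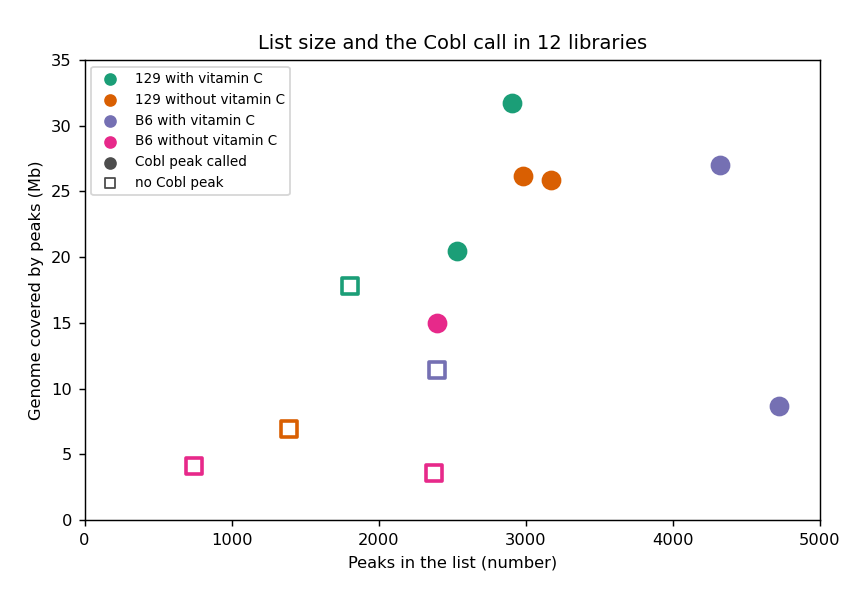
Number of peaks in each list (horizontal axis) against the genome length they cover in Mb (vertical axis), coloured by background and diet; filled circles are the 7 libraries with a Cobl peak and open squares the 5 without. All circles lie at 2395 peaks or more and all squares at 2397 or fewer.

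Neither diet nor background passed the test at Cobl, the only one of the 10 genes at which a test could inform. For diet, the share of marked libraries without minus with vitamin C was -0.167 at Cobl (two-sided exact permutation test that moved diet labels inside each background, with 400 relabellings, p = 1, Benjamini-Hochberg adjusted p = 1). Vangl1 and Fzd6 each had a single peak, in a library with vitamin C, and a gene marked in 1 library can only give p = 1 in this exact permutation test, which therefore says nothing of them. The median over the 4426 tested genes was also -0.167, with 2957 genes lower and 413 higher without vitamin C. List size differed by diet too. Lists covered 8.69 to 31.7 Mb with and 3.58 to 26.2 Mb without vitamin C. The smallest lists, of 3.58, 4.15 and 6.97 Mb, were all without it. The part of list size in this tilt over all genes was not tested. The other 7 genes had no peak to test. Of all 4426 genes, 0 (0%) passed an adjusted p of 0.05 and 1 had an unadjusted p below it, where the smallest possible value was 0.005. With that smallest value, an adjusted p below 0.05 over 4426 genes needs many genes at very low p together. A count of 0 passing, here and in the tests below, therefore does not show that no gene differed.

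The length of Cobl under peaks was close between diets. Peaks covered 1.73 ± 1.71 kb of the gene and its 1 kb margins with vitamin C (SD, n = 6) and 1.67 ± 1.92 kb without it. Each embryo counts as 1 unit here, although the analysed B6 embryos given vitamin C shared a pregnancy code. As a share of that span the difference without minus with was -0.02 percentage points (exact permutation p = 0.94, adjusted p = 1), and 0% of 4426 genes passed (71 at unadjusted p below 0.05). By group the covered length was 2.33 ± 2.13 kb in 129 with and 2.57 ± 2.23 kb in 129 without vitamin C, 1.12 ± 1.3 kb in B6 with and 0.772 ± 1.34 kb in B6 without it (SD, n = 3 each). The spread within each group was far above the difference between diets. The difference changed sign in 6 of the 12 fits that left out 1 library: 129 with vitamin C replicates 1 (0.174) and 3 (0.0311), 129 without replicate 2 (0.256), B6 with replicate 4 (0.132) and B6 without replicates 1 and 2 (0.06 each).

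For background, Cobl was covered over 2.45 ± 1.95 kb in 129 and 0.948 ± 1.2 kb in B6 (SD, n = 6), a difference of -0.65 percentage points of the span, B6 minus 129 (exact permutation of background labels within diet, p = 0.165, adjusted p = 0.454). In the share of marked libraries B6 minus 129 was -0.167 at Cobl (exact permutation p = 1). Of the 4426 genes, 0% passed for either measure, with 15 at an unadjusted p below 0.05 for marking and 584 for covered share. Median peak widths ran from 1.32 to 4.89 kb in the B6 lists and from 4.1 to 8.45 kb in those of 129, so the ranges overlapped. Every B6 library had a higher library number than every 129 library, so that library number and background cannot be told apart. At Cobl the diet effects of the backgrounds, 129 less B6, were 0.333 apart (exact permutation p = 1).

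Vangl1 and Vangl2 encode the paired four-pass membrane proteins of the polarity complex, and loss of Vangl2 in the loop-tail mouse leaves almost the whole neural tube open. Vangl1 (chromosome 3, 102153583 to 102204744) carried 1 peak, in 129 with vitamin C replicate 1. It was 7.39 kb wide (102201264 to 102208650), lay over the end of the gene with the higher coordinate and overlapped the noncoding gene Gm16160 as well. It was among the weakest peaks of its list, at the 4.85th percentile by total signal and the 1.99th by maximum signal, with a total signal 1.06 times the lowest. The library that held it covered more of the genome than any other (31.7 Mb). Vangl2 (chromosome 1, 172000960 to 172027318) carried none.

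Both Vangl genes lay beside a marked Nhlh gene. Nhlh2 and Nhlh1 encode related basic helix-loop-helix factors of early neurons. The region over Nhlh2, 133.5 kb from Vangl1, was called in 11 libraries and had a median percentile of 73.6 by total signal. The region over Nhlh1, 23.9 kb beyond the start of Vangl2, was called in 8 libraries at a median percentile of 32. The peak over Nhlh1 came no closer than 23.9 kb to Vangl2 in any library. In the 4 libraries without it the nearest peak to Vangl2 was 297.4 to 914.9 kb away. Nhlh1, Nhlh2 and the other genes named for regions next to the 10 genes were taken as the nearest regions called in at least 6 libraries.

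Celsr1, Scrib and Ptk7 act with Vangl2, and mutation of each leaves a similarly open neural tube in mice. Celsr1 (chromosome 15, 85898758 to 86034223) encodes a large cadherin of cell borders, and its nearest peak lay 75.6 to 235.1 kb away (median 159.5). Ptk7 (chromosome 17, 46564451 to 46630049) encodes a kinase-like receptor, and its nearest peak lay 42 to 265.8 kb away (median 74.7). The nearest region called in at least 6 libraries lay 157.6 kb from Celsr1 over Ppara, a nuclear receptor gene (11 libraries), and 68.6 kb from Ptk7 over Ttbk1, a tau kinase gene (10 libraries).

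Scrib (chromosome 15, 76047162 to 76069784), a scaffold protein gene, was the unmarked gene closest to the mark. Its nearest peak lay 7.31 to 18.8 kb away in every one of the 12 libraries, with a median of 11.8 kb. On the high-coordinate side a region of 11.5 kb over Nrbp2 began 15.3 kb from Scrib and was called in all 12 libraries, at a median percentile of 77.1 by total signal. On the other side a region of 7.16 kb over Iqank1 lay 7.31 kb away and was called in 7 libraries, at a median percentile of 20.6. Extending the window to 5 kb at each end therefore added no call at Scrib, nor at any other unmarked gene of the 10.

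The Fzd3 and Fzd6 receptors act redundantly in closing the neural tube. Fzd6 (chromosome 15, 39006149 to 39038192) carried 1 peak, in B6 with vitamin C replicate 4, the second longest list with 4320 peaks. That peak was 2.75 kb wide (39004944 to 39007695), covered the low-coordinate end of the gene, overlapped the noncoding gene Gm26704 and stood at the 11.7th percentile by total signal. In the other 11 libraries the nearest peak to Fzd6 was at least 531.8 kb away. Fzd3 (chromosome 14, 65192441 to 65262463) had no peak within 361.7 kb in any library. Its nearest region called in at least 6 libraries lay 596.1 kb away over Mir124a-1hg, the host of a neuronal microRNA, and was called in all 12 libraries.

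Shroom3 (chromosome 5, 92683435 to 92965759) recruits the kinases that drive apical constriction, and Folr1 (chromosome 7, 101858331 to 101870788) encodes a folate receptor of the neural folds and yolk sac. Shroom3 is the longest of the 10 genes at 282.3 kb and had no peak at either end or anywhere inside it in 12 libraries. A region over Sowahb, 73.9 kb beyond its high-coordinate end, was called in 11 libraries. Folr1 is the shortest at 12.5 kb. A region of 9.64 kb over Phox2a, which specifies autonomic neurons, and part of Inppl1 lay 34.7 kb away and was called in 11 libraries. In those 11 libraries the nearest peak to Folr1 lay 34.7 to 40 kb from it.

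The rest of the pathway was marked unevenly. For comparison, 20.2% of all protein-coding genes were marked in at least 1 library and 11% in 6 or more. Among 10 other core polarity genes, 4 were marked in at least 1 library and 2 in 6 or more. These were Celsr3, a paralogue of Celsr1, in 7 libraries (inside the gene in 5) and Prickle4 in 8 (inside in 1). The Prickle4 peaks also overlapped Frs3 and Tomm6 in all 8. Of 8 other frizzled receptors, 5 were marked, led by Fzd9 (8 libraries) and Fzd10 (6). Fzd5, a receptor of the eye field, was marked in 3 libraries with vitamin C (1 of 129, 2 of B6) and 0 without (exact permutation p = 0.2). Of the 4426 tested genes, 2957 were likewise marked less often without vitamin C and 413 more often. Of 9 Wnt ligand and co-receptor genes, 4 were marked. The ligand genes Wnt11 and Wnt9b were marked in 12 libraries each, and Wnt5a in 7. A peak lay inside the gene in 12 libraries at Wnt9b, 5 at Wnt5a and 0 at Wnt11. The Wnt9b peaks also overlapped Wnt3 in 10 libraries. Of 7 Fat and Dachsous cadherin genes, 4 were marked, with Dchs2 in 12 libraries and Dchs1 in 10 (6 with and 4 without vitamin C). Dchs1 had a peak inside the gene in 10 libraries and Dchs2 in 2. The Dchs2 peaks also overlapped Gm10710 in all 12. The core Dishevelled genes Dvl1, Dvl2 and Dvl3 were marked in 0 libraries.

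Genes that execute the shape changes and those of folate metabolism were mostly unmarked, as were protein-coding genes in general (20.2% marked in at least 1 library). Of 18 effectors and polarity partners, 16 were marked in 0 libraries, and the exceptions were Intu, a ciliary effector (7 libraries), and Llgl2 (6 libraries, 4 with and 2 without vitamin C), whose peaks also overlapped Myo15b. Of 17 genes of apical constriction and actin, 15 were marked in 0 libraries, whereas Shroom1, a relative of Shroom3, was marked in 12. The Shroom1 peaks also overlapped Sowaha in 5 libraries, and Shroom1 had a peak inside the gene in 3. Of 20 folate genes, 18 were marked in 0 libraries. Shmt2, a mitochondrial enzyme of one-carbon metabolism, was marked in 7 libraries by peaks that also overlapped Stac3 and Ndufa4l2 in all 7, and Aldh1l2 was marked in 3 (1 with and 2 without vitamin C).

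Transcription factors of neural tube closure differed from these lists. Of 17, 14 were marked in at least 1 library and 8 in 10 or more, with a median of 9 libraries, against a median of 0 for the 10 genes. Over all protein-coding genes, 20.2% were marked in at least 1 library and 5.93% in 10 or more. Cdx2 and Msx1 were marked in 12 libraries, and Msx2 in 11. The Cdx2 peaks also overlapped Urad in 8 libraries. The factors with the greatest difference between diets were Zic2 (4 libraries with and 1 without vitamin C), whose peaks also overlapped Pcca, and Tfap2a (6 and 3). Tfap2a had a peak inside the gene in 2 libraries. In the 8 lists together 0 genes passed the diet or the background test (exact permutation, Benjamini-Hochberg over 4426 genes). The difference between lists is a description and was not tested.

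**Figure D4:**
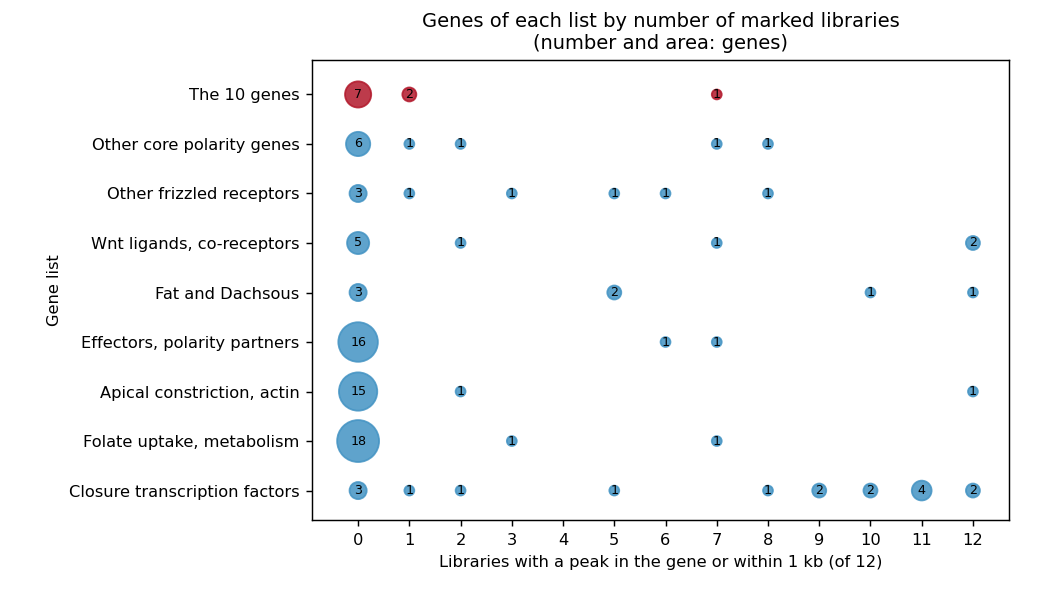
Number of libraries, of 12, in which each gene of a list was marked (horizontal axis), by list (vertical axis); the number in each circle and its area give the count of genes there. Of the 10 genes (red), 7 sit at 0 libraries and Cobl at 7, whereas 8 of 17 closure transcription factors sit at 10 or more. The share of all protein-coding genes at 10 or more, not drawn, was 5.93%.

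The pattern of Cobl over the libraries was shared by other genes. Besides Cobl, 43 protein-coding genes were marked in exactly the same 7 libraries. These are among the 277 genes counted as marked in 7 libraries of any set. By covered share of the gene over the 12 libraries, the genes most like Cobl at least 1 Mb away were Thrb, a thyroid hormone receptor gene (Pearson r = 0.996, n = 12 libraries), and Gm2115 (r = 0.991). Both were marked in the same 7 libraries. These correlations share libraries and list sizes and carry no test.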

How the data were processed

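H3K27me3 CUT&Tag peak lists of 12 libraries were used, 3 for each background and diet. Per the submitters' processing notes the tools were cutadapt, Bowtie2, Picard and SEACR and the build was mm10. Not given in the sources used here are versions, settings and any use of IgG libraries in peak calling. Each list holds the peaks of 1 library, without pooling. The deposited total and maximum signal of each peak are whole numbers, with no stated scaling to depth, and were compared only between peaks of the same library. Depth is unknown, and only list sizes can be given.

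Gene spans came from RefSeq (GRCm38.p6), with coordinates counted from 1. Peaks reaching within 1 kb of a gene end were called end peaks and the others inside peaks. Presence and covered share were tested over all 4426 protein-coding genes with a peak, by exact permutation with Benjamini-Hochberg adjustment (threshold 0.05). Code was tested on simulated data. The genes, lists and tests were chosen with earlier results of these data known. All 10 genes are named; from each further list, those marked in 6 or more libraries (at most 5) and those with the largest diet difference. A few genes are not reported here. Alternatives were other margins, peak filters, equal lists, joined peaks, pregnancy averages and omitted libraries. Python 3.11.15, NumPy 2.4.6, pandas 2.3.3 and Matplotlib 3.10.9 were used.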

Additional observations from a re-analysis of the deposited data

How the results depend on the processing

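The count of 3 marked genes among the 10, and of 9 marked combinations of gene and library, held with margins of 0, 2.5 and 5 kb, with peaks less than 5 kb apart joined and with an overlap of at least 500 bp. With peaks of at least 1 kb, or without the 2 libraries of median peak width under 2 kb, the counts were 3 and 8. With peaks at or above the list median of maximum signal they fell to 1 gene and 1 combination (Cobl in 129 with vitamin C replicate 3), and with equal lists of 748 peaks to 0 and 0. Both alternatives keep fewer peaks, and the share of all protein-coding genes marked in at least 1 library was 13.4% and 7.28% under them, against 20.2% with all peaks. Leaving out each library in turn gave 2 to 3 genes and 7 to 9 combinations, with 2 genes without 129 with vitamin C replicate 1, which held the Vangl1 peak, and without B6 with vitamin C replicate 4, which held the Fzd6 peak. With a margin of 0 kb the short Cobl peak of B6 with vitamin C replicate 2 counted as inside the gene.

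The diet difference in the covered share of Cobl, -0.02 percentage points, changed sign with peaks of at least 1 kb (0.0353) and without the libraries of narrow peaks (0.0267), and ran from -0.277 to 0.256 with single libraries left out. The cause was not tested. Its adjusted p by exact permutation was 0.883 or more in each alternative that gave a value. The background difference in covered share at Cobl stayed below 0 in each alternative that gave a value, with adjusted p of 0.213 to 1 (exact permutation). The number of genes passing was 0 in each of the 4 tests under each alternative for which they were run. Averaging by pregnancy was run for the diet effect on marking alone, where the number was also 0. The smallest possible p limits these counts as it does the main ones, so they do not show that no gene differed. With embryos of 1 pregnancy averaged, the diet difference in marking at Cobl was -0.167 (exact permutation p = 0.85, 80 relabellings). No effect could be given at Cobl with equal lists, where it had no peak.

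No paired analysis was possible because the labels give no replicate numbers that tie embryos of different groups together. Unknown depth limits every absence reported here.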
